A study of Rattus norvegicus with 35 samples.

Results

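The comparison described here set 29 livers of rats given BTBPE, pooled whatever the dose, against the 6 livers of rats given only the corn oil vehicle. The 29 dosed arrays were all those titled with a BTBPE dose among 35 in the series, and no measured value entered the choice. BTBPE, 1,2-bis(2,4,6-tribromophenoxy)ethane, is an additive brominated flame retardant. Pooling the doses asks for a change that any amount of the compound would produce, and how far such a change would rest on the few vehicle animals.

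All animals were male Harlan Sprague Dawley rats, 7 weeks of age when dosing began, gavaged daily for 5 days at 5 ml/kg body weight. Dosed rats received 0.07 mg/kg (n = 6), 0.69 mg/kg (n = 6), 6.88 mg/kg (n = 6), 68 mg/kg (n = 5) or 680 mg/kg (n = 6) in corn oil, and vehicle rats (n = 6) received the oil alone. RNA came from the left liver lobe 1 day after the final dose and was hybridised to a single-colour rat expression array, 1 array per rat. Each sample is counted as 1 animal. The labels do not describe cages or order of handling, so p-values measure the spread between these samples only.

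The liver is where most foreign compounds are sensed and cleared. The nuclear receptors CAR and PXR switch on cytochromes P450, transferases and transporters, AhR switches on the Cyp1 genes, NRF2 the antioxidant genes, and PPAR-alpha the genes of fatty acid oxidation. Many brominated aromatic compounds are known as ligands or activators of some of these receptors, which makes their targets the usual readout of a short exposure.

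Values are log2 RMA expression, and a difference is the dosed mean minus the vehicle mean on that scale unless it is called a fold. Of 31042 probe sets, array medians lay between 4.71 and 4.79, and 9669 of 14217 named genes had a mean at or above the lowest array median. Pairs of arrays correlated between 0.991 and 0.996 across probe sets, and none was a duplicate. All 14 measured hepatocyte markers lay above the lowest array median, as a liver label requires. Alb, serum albumin, averaged 14.39 ± 0.02 in dosed livers and 14.38 ± 0.08 in vehicle livers (SD, n = 29 and 6). Of the markers of tissues that a dissection could carry along, 4 of 18 measured for exocrine pancreas and 1 of 12 for kidney and adrenal reached that level. RNA integrity was read as the log2 signal at the 3 prime end of actin minus that at its 5 prime end. This measure was 1.16 ± 0.08 in dosed livers and 1.12 ± 0.08 in vehicle livers, a difference of 0.04 (two-sided exact permutation test over 1623160 assignments, p = 0.257). The same measure for Gapdh differed by 0.02 (exact permutation p = 0.449), and both adjusted p were 0.449.

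No gene passed the test for a shift shared by the doses. limma called 0 probe sets higher (0%) and 0 lower (0%) in dosed livers at an adjusted p of 0.05, with a smallest adjusted p of 0.975. At an unadjusted p under 0.05 there were 533 higher (1.72%) and 589 lower (1.9%), in all 1122 (3.61%), where that threshold alone would give 1552. An unmoderated linear model also called 0, with 518 higher and 562 lower at the same unadjusted threshold. The dosed mean was the higher one for 15047 probe sets (48.5%) and, with 1 probe set per gene, for 6988 genes (49.2%), leaving 7229 genes (50.8%) lower. Across probe sets the middle of the distribution was narrow, with quartiles of -0.04 and 0.04.

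The data bounded most genes closely. The 95% interval of the difference lay within 1.5-fold in either direction for 9554 of the 9669 genes at or above the lowest array median (98.8%), and within 2-fold for 9650 (99.8%). These intervals are those of single genes and are not adjusted for their number. Over all probe sets the differences ran from -0.78 to 1.45, with 13 higher and 11 lower by more than 0.5, and a single probe set, that of Cdh17, beyond 1. The 6 vehicle arrays carried 82.9% of the error variance of each difference, so that pooling 29 dosed rats made the standard error only 22.3% smaller than that of a comparison of 6 with 6.

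**Figure D1:**
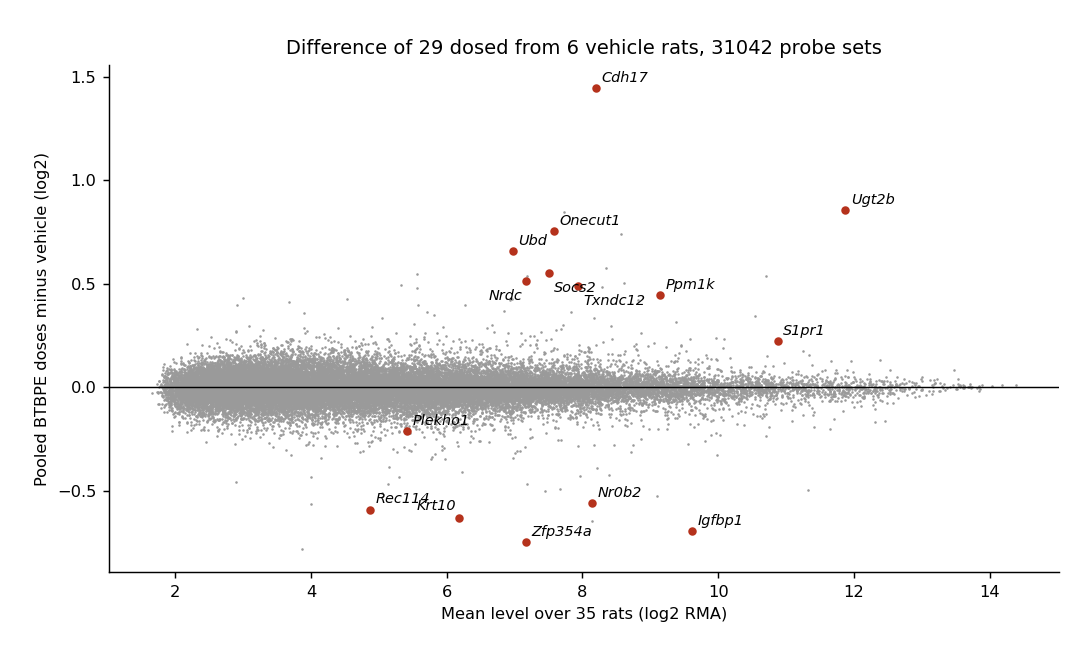
Difference of the dosed mean from the vehicle mean (log2) against the mean level over 35 rats (log2 RMA), 1 point per probe set, with the genes discussed in red. The cloud is centred on 0 with quartiles of -0.04 and 0.04, and the difference of Cdh17, 1.45, stands above all others.

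No probe set separated the groups. All 29 dosed arrays lay above all 6 vehicle arrays for 0 probe sets (0%) and below them for 0 (0%). All 6 vehicle arrays lay below the dosed median for 589 (1.9%) and above it for 699 (2.25%). The genes named next are those with the smallest p or the largest difference at or above the lowest array median. None was called, and limma's adjusted p was 1.00 for each.

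Among the genes higher in dosed livers, the smallest p belonged to S1pr1 (probe set 1371840_at), the receptor for sphingosine 1-phosphate on sinusoidal and vascular endothelium. Its level in the dosed rats was 10.62 at the lowest, 10.92 at the median and 11.14 at the highest, and in the 6 vehicle rats it was 10.63, 10.63, 10.62, 10.65, 10.88 and 10.74. All 6 vehicle rats were under the dosed median and 27 of 29 dosed rats were above the vehicle mean. The ranges overlapped, with 18 dosed rats above every vehicle rat and 2, both at 6.88 mg/kg, below every one. The difference was 0.22 (95% interval 0.11 to 0.34). The group means were 10.88, 10.95, 10.83 and 10.92 at 0.07, 0.69, 6.88 and 68 mg/kg, and the mean at 680 mg/kg was the highest of the 5. A second, dim probe set of the gene had a difference of -0.09.

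Ctnnd1 (1388415_at), a catenin that holds cadherins at the cell membrane, averaged 6.63 ± 0.11 in dosed rats and 6.45 ± 0.15 in vehicle rats. Every one of the 29 dosed rats was above the vehicle mean, and 18 were above all vehicle rats. Its difference was 0.19 (95% interval 0.08 to 0.29). Ppm1k (1388778_at), the mitochondrial phosphatase that activates breakdown of branched-chain amino acids, averaged 9.22 ± 0.32 in dosed rats, with a lowest of 8.51, against 9.03, 8.16, 8.62, 9.08, 8.74 and 9.01 in vehicle rats. All vehicle rats were below the dosed median, and the other probe sets of Ppm1k had the same sign, with differences of 0.42 and 0.23 beside 0.44 for the brightest. The remaining genes of this kind had small differences. They were Slc44a4, a choline transporter-like protein, with 0.33, Stau2, an RNA-binding protein, with 0.25, Tmem216, a protein of the base of the cilium, with 0.18, Rfx5, a regulator of class II antigen presentation genes, with 0.18, and Atxn2l with 0.17. For Stau2, 2 of 3 further probe sets had the opposite sign.

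Nrdc (1387110_at), the metalloprotease nardilysin, and Txndc12 (1388523_at), a thioredoxin-like protein of the endoplasmic reticulum, had differences of 0.51 and 0.49 that came from the same animals. Nrdc was 6.17 at the lowest, 7.36 at the median and 7.53 at the highest in dosed rats, against 7.35, 6.45, 6.64, 7.24, 6.57 and 6.20 in vehicle rats. Txndc12 was 6.92 at the lowest, 8.12 at the median and 8.32 at the highest in dosed rats, against 8.07, 7.21, 7.27, 8.15, 7.34 and 7.15 in vehicle rats. Each gene had an empty stretch in its distribution, between 6.64 and 7.11 for Nrdc and between 7.34 and 7.93 for Txndc12, and the 7 rats below it were the same 7 for both. They were 3 of 29 dosed rats (1 each at 0.07, 0.69 and 68 mg/kg) and 4 of 6 vehicle rats. In the RefSeq annotation of assembly GRCr8 the genes lie close together, with 2 protein-coding genes between them. Those neighbours, Kti12 and Rab3b, had differences of 0.06 and -0.02.

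**Figure D2:**
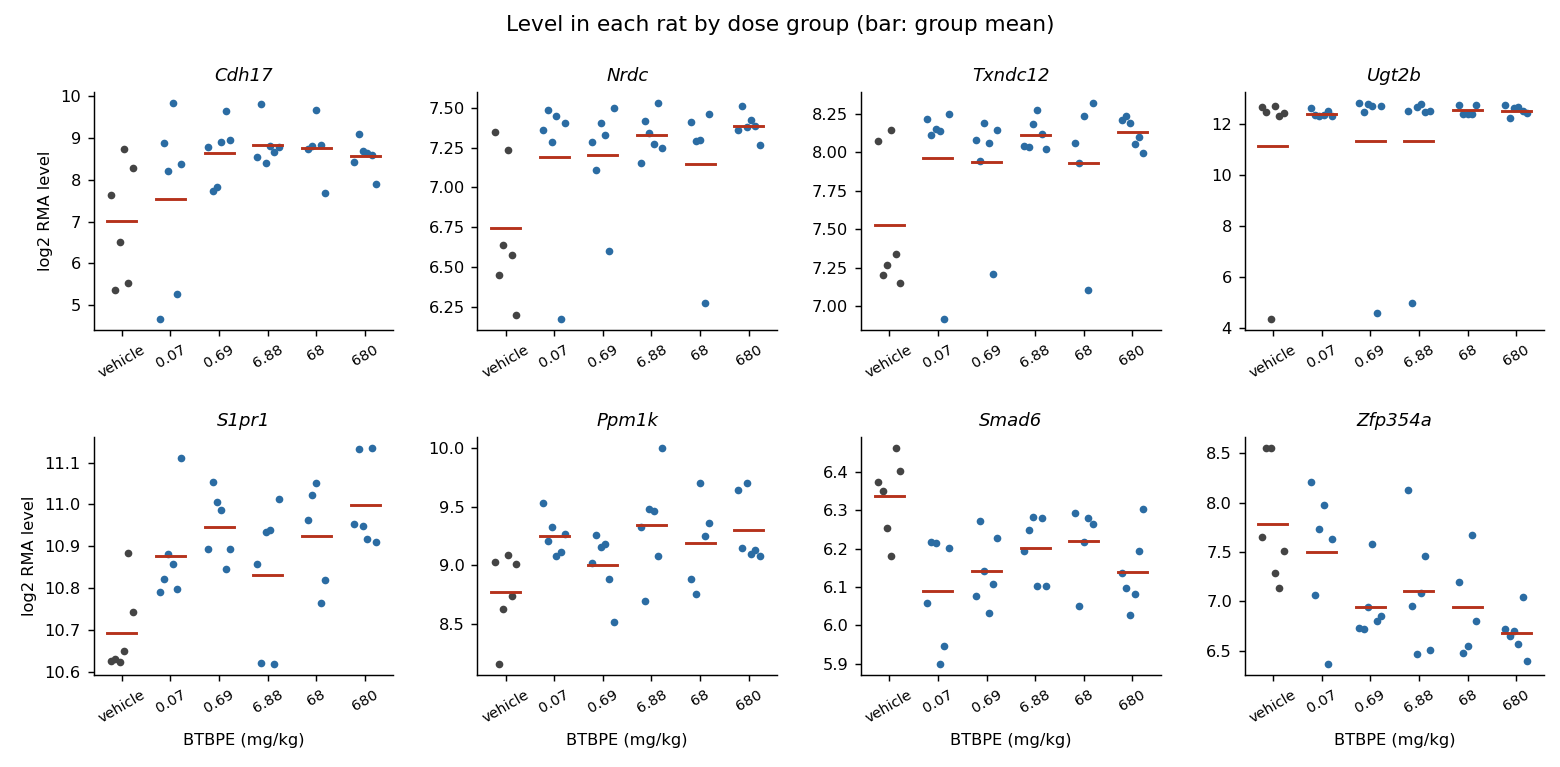
Level in each rat (log2 RMA) of 8 genes, by dose group with vehicle (grey) at the low end, and BTBPE doses in mg/kg (blue). The red bar is the group mean. Nrdc and Txndc12 fall into a high and a low class in which 4 of 6 vehicle rats are low, and a single vehicle rat lies near 4 for Ugt2b.

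Of the genes lower in dosed livers, Plekho1 (1380187_at), a pleckstrin homology protein, and Smad6 (1375121_at), an inhibitor of bone morphogenetic protein signalling had no dosed rat above the vehicle mean. Smad6 was 5.90 at the lowest, 6.19 at the median and 6.30 at the highest in dosed rats, against 6.37, 6.35, 6.25, 6.18, 6.46 and 6.40 in vehicle rats. For both genes 0 of 29 dosed rats exceeded the vehicle mean and 1 of 6 vehicle rats lay under the dosed median, and 14 dosed rats for Smad6 and 9 for Plekho1 lay below every vehicle rat. The differences were -0.18 for Smad6 (95% interval -0.28 to -0.08) and -0.21 for Plekho1 (95% interval -0.32 to -0.11). The second probe set of Plekho1 had a difference of -0.17, and 1 of 3 further probe sets of Smad6 was of opposite sign.

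Zfp354a (1368877_at), a zinc finger transcription repressor of the KRAB family, was 6.36 at the lowest, 6.85 at the median and 8.21 at the highest in dosed rats, against 7.65, 8.56, 8.55, 7.29, 7.14 and 7.51 in vehicle rats. All 6 vehicle rats lay above the dosed median, and 20 of 29 dosed rats lay below every vehicle rat. The difference was -0.75, a fold of 0.595 (95% interval on the log2 scale -1.22 to -0.28). By rising dose the means were 7.50, 6.94, 7.10, 6.94 and 6.68, and the test for differences among the doses gave an adjusted p of 1.00. Cnp, a myelin-type phosphodiesterase, had a difference of -0.26, and Tbxas1, thromboxane synthase, one of -0.21. Rgs12, Slc2a9, Fam120b, Mtss1 and Zbtb7a lay between -0.19 and -0.10. By count of dosed rats below every vehicle rat, Fam120b had 25 of 29, Cnp 22 and Mtss1 21, and for these all 6 vehicle rats lay above the dosed median. The difference of Fam120b, -0.15, was -0.10 without vehicle replicate 3. Its 2 further probe sets had differences of -0.04 and 0.07, the second of opposite sign.

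The largest difference was that of Cdh17 (1369224_at), the liver-intestine cadherin of bile duct and gut epithelium. It was 4.67 at the lowest, 8.68 at the median and 9.84 at the highest in dosed rats, against 7.63, 5.36, 6.50, 8.74, 5.52 and 8.27 in vehicle rats. The gene was at 6.50 or below in 5 rats, 2 of 29 dosed and 3 of 6 vehicle, and at 7.63 or above in the other 30. Both low dosed rats had received 0.07 mg/kg, and 4 of the 5 low rats were also low for Nrdc. The difference was 1.45 (95% interval 0.46 to 2.43). Over the cholangiocyte list to which Cdh17 belongs, 9 of 14 measured markers were lower in dosed livers and the median difference was -0.02.

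Ugt2b (1387825_at), a glucuronosyltransferase, owed its difference of 0.86 to 1 vehicle rat. Among dosed rats 2 lay at 4.57 and 4.97 and the other 27 at 12.24 or above, while in vehicle rats the level was 4.34 in 1 and between 12.33 and 12.72 in the other 5. Without that vehicle rat the difference was -0.51. Ubd, a ubiquitin-like protein induced by inflammatory cytokines, also had a divided distribution, with 6 of 29 dosed and 3 of 6 vehicle rats at 5.02 or below and the other 26 rats at 6.94 or above. Its difference was 0.66 (95% interval -0.52 to 1.83), with 0.29 without vehicle replicate 2 and 1.12 without replicate 4.

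Onecut1, a liver transcription factor that responds to growth hormone, averaged 7.71 ± 1.11 in dosed rats and 6.95 ± 0.93 in vehicle rats, and Socs2, a feedback inhibitor of growth hormone signalling, 7.60 ± 0.82 and 7.05 ± 0.86. Both intervals included no difference, and the difference of Socs2, 0.55, was 0.33 without vehicle replicate 6. Igfbp1, an insulin-repressed binding protein of insulin-like growth factors, averaged 9.50 ± 0.86 in dosed rats and 10.19 ± 0.58 in vehicle rats. Nr0b2, the corepressor that bile acids induce, averaged 8.05 ± 0.66 in dosed rats and 8.60 ± 0.35 in vehicle rats. The lowest rat for both Igfbp1 and Nr0b2 was the same animal of the 680 mg/kg group. Krt10 and Rec114 had differences of -0.63 and -0.59, and that of Rec114 was -0.29 without vehicle replicate 2 and -0.92 without replicate 5.

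At any level of signal the smallest p belonged to dim probe sets. For Galnt13, probe set 1386047_at was higher by 0.28, and for Lgi1, 1386023_at had a difference of -0.21, each with an adjusted limma p of 0.975. Probe set 1375921_at, which has no gene name here, averaged 3.93 ± 0.23 in dosed rats and 4.37 ± 0.24 in vehicle rats, also with an adjusted limma p of 0.975. The means of these probe sets lie under the lowest array median, where RMA compresses differences. Both other probe sets of Galnt13 had the opposite sign. The brightest of that gene, with a mean of 5.20, had a difference of -0.03, so the gene as represented here was not higher.

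None of the genes taken to report receptor activation passed the test. The receptor targets are among 17 response lists, the others covering processes such as metabolism, stress, inflammation, the clock and cell division. Taking the first 2 measured members of all 17 lists, 8 of 34 genes were higher and 26 lower in dosed livers. Of all genes, 50.8% were lower. Of the 34 intervals, 33 included no difference. When each vehicle rat was left out in turn, the differences of 13 of the 34 genes took both signs. For the 29 of them at or above the lowest array median, folds ran from 0.820 for Egr1, an immediate early gene, to 1.09 for Orm1, an acute phase gene. Both ends moved with single vehicle rats. The log2 difference of Egr1, -0.29 with all rats, was 0.00 without vehicle replicate 1 and -0.62 without replicate 4, and that of Orm1, 0.13 with all rats, was 0.02 without replicate 1. The CAR and PXR targets Cyp3a2 and Cyp3a23-3a1, the main drug-oxidising P450s of this family in rat liver, had differences of -0.01 (95% interval -0.07 to 0.06) and -0.07 (95% interval -0.24 to 0.10). Cyp1a2, an AhR target, differed by -0.03 (95% interval -0.12 to 0.06). Cyp1a1, the most inducible AhR target, is dim in these livers and was the 1 gene of the 34 whose interval did not include 0. It averaged 4.34 ± 0.23 in dosed rats and 4.56 ± 0.23 in vehicle rats, a difference of -0.21 (95% interval -0.41 to -0.02). Its adjusted p in the limma fit over all probe sets was 1.00. Gclc and Gclm, the subunits of the enzyme that starts glutathione synthesis, differed by 0.04 and -0.01.

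**Figure D3:**
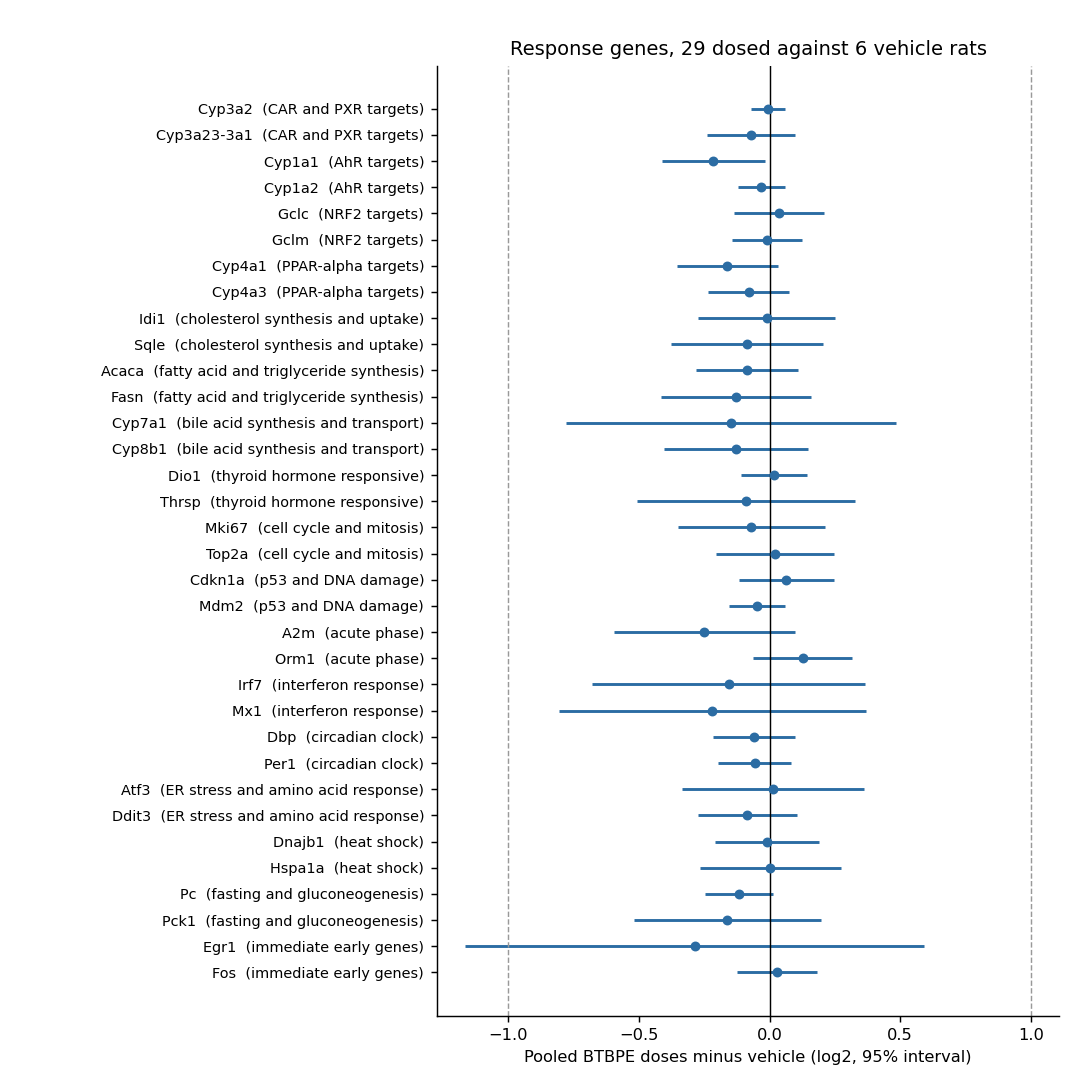
Difference of pooled doses from vehicle (log2, point) with its 95% interval (line) for 34 response genes, the list of each in brackets. Dashed lines mark a 2-fold difference, and 33 of the 34 intervals lie within them, the exception being Egr1.

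Other response genes covered metabolism and stress. Cyp4a1, the fatty acid hydroxylase of the PPAR-alpha response, averaged 11.06 ± 0.24 in dosed rats and 11.22 ± 0.13 in vehicle rats, with all 6 vehicle rats above the dosed median. Cyp7a1, the rate-limiting enzyme of bile acid synthesis, differed by -0.15 with a wide interval (-0.78 to 0.48), and by -0.42 without vehicle replicate 4 and 0.01 without replicate 1. Dio1, a deiodinase that responds to thyroid hormone, differed by 0.02. Cdkn1a, an arrest gene of the p53 response, differed by 0.06. Hspa1a, an inducible heat shock chaperone, differed by 0.00. Mki67, the proliferation antigen, differed by -0.07.

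Gene lists were read against the 50.8% of all genes that were lower in dosed livers, with a median difference of -0.00 over all genes. None of the 654 measured entries of 32 lists was called. All members of a list were measured in the same rats, so counts of members are not counts of independent results. The Kupffer cell and macrophage markers had the lowest median, -0.14, with 17 of 19 lower and none at an unadjusted limma p under 0.05. They included the lysozyme gene Lyz2 (-0.26), the haemoglobin scavenger receptor Cd163 (-0.25), the complement genes C1qa (-0.15), C1qb (-0.16) and C1qc (-0.16), and the Kupffer cell lectin Clec4f (-0.14), while Cd14 (0.13) and Itgam (0.08) were higher. The level of the list, as a mean over its members in each rat, ran from 7.48 to 8.55 in dosed rats (median 8.05), and was 8.19, 8.15, 7.77, 8.37, 8.20 and 8.16 in vehicle rats, all within the dosed range. Its part in the differences of other genes was not tested. In bulk liver, fewer cells of a type and less RNA per cell cannot be told apart.

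Endothelial markers were 17 of 20 lower, with a median of -0.06. Clec1b, a lectin receptor (-0.17), and Ptprb, an endothelial phosphatase (-0.13), had an unadjusted p under 0.05 in that direction. The other direction held S1pr1 (0.22) and Rspo3, a Wnt enhancer of central veins (0.16). The number of the 20 higher than vehicle was 3, 5, 4, 4 and 12 at 0.07, 0.69, 6.88, 68 and 680 mg/kg, and all of these counts share the same vehicle rats.

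Cholesterol synthesis and uptake genes were 19 of 20 lower, with a median of -0.07 and none at an unadjusted limma p under 0.05. The members spanned the pathway, from Idi1 (-0.01) and Fdps (-0.01) in the early steps through Fdft1 (-0.11), Sqle (-0.09) and Lss (-0.13) at the squalene steps to Dhcr7 (-0.12) at its end. Only Stard4, a sterol carrier (0.11), was higher. Taken dose by dose, 3, 9, 2, 4 and 1 of the 20 were higher than vehicle by rising dose. The mean level of this list had a lowest value of 9.52 and a median of 9.91 in dosed rats, against 9.48 in 1 vehicle rat and between 9.77 and 10.20 in the other 5.

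PPAR-alpha targets were 26 of 33 lower, with a median of -0.05. The lower ones included the fatty acid oxidation genes Cpt1a (-0.18), Acaa2 (-0.17), Hadhb (-0.10) and Hadha (-0.08). The largest difference of the 7 higher was that of Cpt1b (0.13). An unadjusted limma p under 0.05 held for 1 higher and 2 lower members. By rising dose, 9, 4, 11, 11 and 13 of the 33 were higher than vehicle. Bile acid genes were 16 of 21 lower (median -0.05) and fasting and gluconeogenesis genes 15 of 22 (median -0.07). Those higher by rising dose were 7, 5, 6, 4 and 4 bile acid genes and 8, 6, 9, 9 and 6 fasting genes. CAR and PXR targets were 13 of 19 lower (median -0.07). Of these 19, the number higher than vehicle was 6, 6, 6, 6 and 10 by rising dose, and their median at 680 mg/kg was 0.00. For CAR and PXR targets the largest differences were those of the sulfotransferase Sult2a6 (-0.31) and the glutathione transferase Gsta3 (-0.24). AhR targets were 5 of 10 lower and NRF2 targets 11 of 23 lower, close to the share over all genes. Male-predominant and growth hormone genes were 7 of 23 lower (median 0.02), and neutrophil markers 2 of 10 lower (median 0.04), although only 2 of these 10 markers reached the lowest array median.

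**Figure D4:**
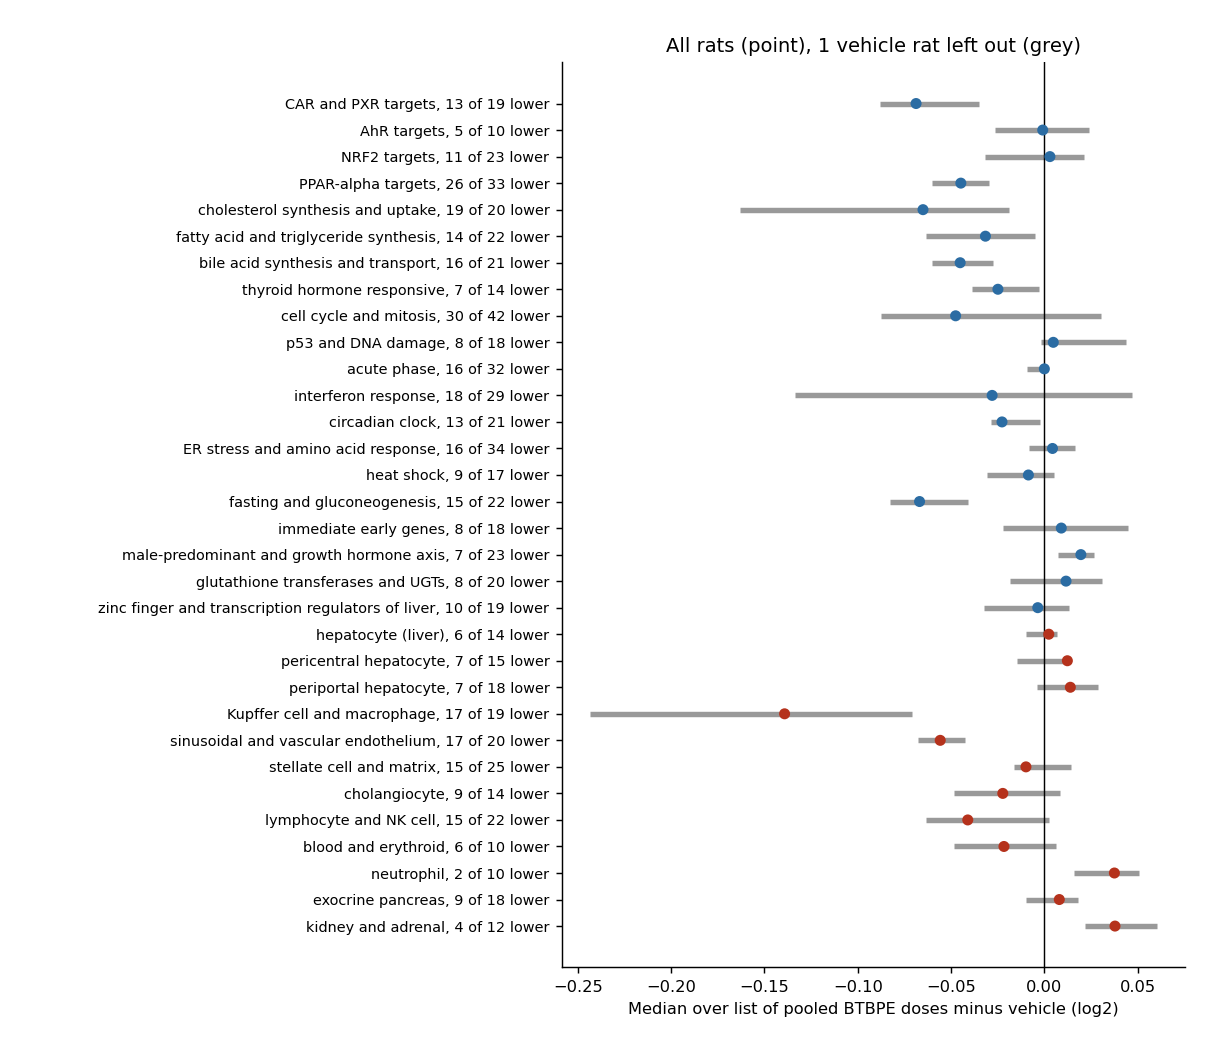
Median difference of pooled doses from vehicle (log2) over each gene list (blue, response and other lists; red, cell type markers), with the grey bar giving the range when each vehicle rat was left out in turn. The macrophage median of -0.14 lies lowest, and the bars of 19 of the 32 lists cross 0.

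The second test asked whether the doses differed from one another, which does not use the vehicle rats' mean. limma's F test over the 4 differences among the 5 doses called 0 probe sets (0%), with a smallest adjusted p of 1.00 and 1286 at an unadjusted p under 0.05 (4.14%). An unmoderated F test also called 0. A result of 0 in both tests leaves unresolved any shared shift smaller than the intervals given above. Those intervals are of the pooled difference, and none was computed for the differences among doses. A change at 1 dose alone is diluted in the pooled mean and is not bounded by them.

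The small differences depended on which vehicle rats were present. Leaving out each vehicle rat in turn, limma called 0 probe sets each time, with smallest adjusted p of 0.782, 0.799, 1.00, 0.607, 0.683 and 0.297 for replicates 1 to 6. Of the 1122 probe sets at an unadjusted p under 0.05, between 58.9% and 68.4% kept that p when 1 vehicle rat was left out, and 226 (20.1%) kept it under all 6 omissions. S1pr1 ranged from 0.21 to 0.26, Smad6 from -0.21 to -0.16 and Zfp354a from -0.88 to -0.59 over these omissions. Cdh17 ranged from 1.12 to 1.79, and Nrdc from 0.40 to 0.64.

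**Figure D5:**
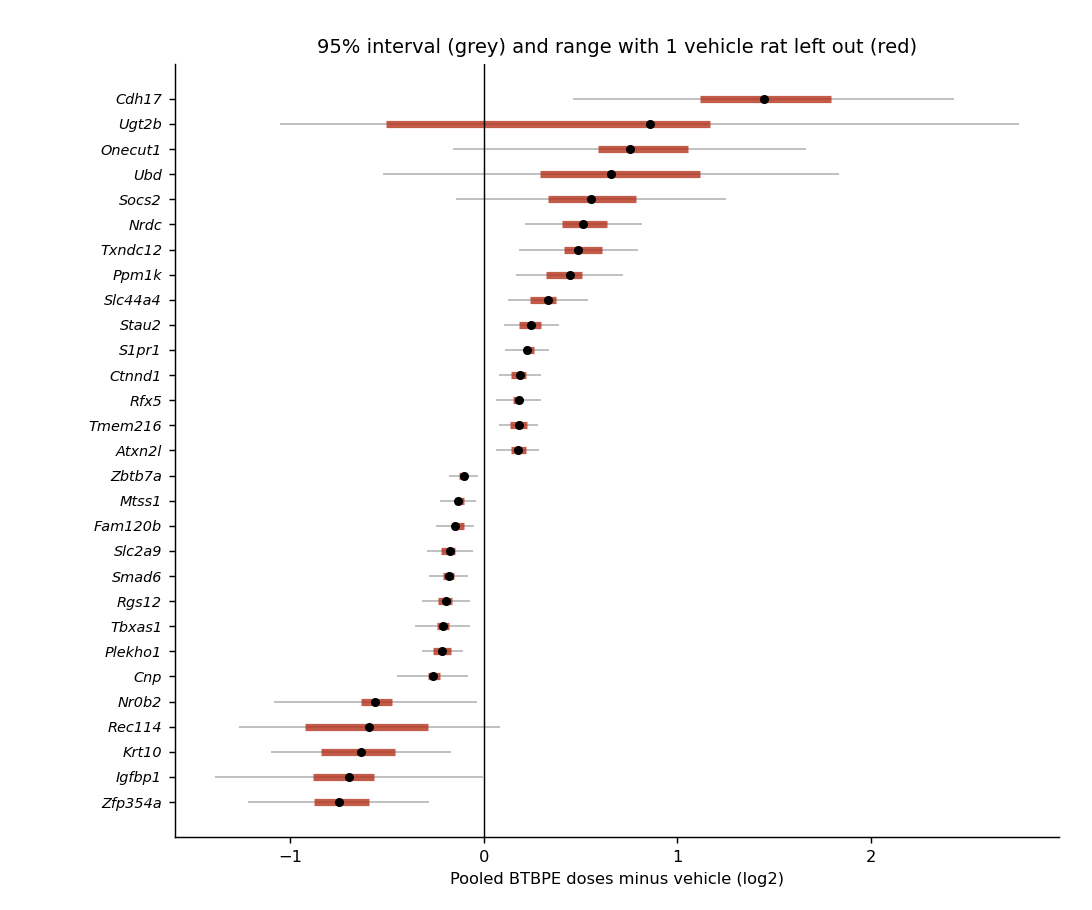
Difference of pooled doses from vehicle (log2, point) for the genes with the smallest p or the largest difference, with its 95% interval (grey) and its range when each vehicle rat was left out in turn (red). Ugt2b is the gene whose red range crosses 0, from -0.51 to 1.17. The genes were picked from these same rats, which favours a range on 1 side of 0.

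Lists moved in the same way, and the medians of 19 of 32 took both signs over the vehicle omissions. The macrophage median lay between -0.24 and -0.07 over the vehicle omissions, with 2 or 3 of 19 members higher, and the endothelial median between -0.07 and -0.04, with 3 of 20 higher each time. The cholesterol median was -0.16 without vehicle replicate 4, the rat with the lowest level, and -0.02 without replicate 3, where 12 in place of 19 members were lower. For cell cycle genes, 30 of 42 were lower with all rats and 14 without vehicle replicate 2. The doses differed too, with 19, 30, 5, 11 and 13 of the 42 higher than vehicle by rising dose. Interferon response genes were 18 of 29 lower with all rats, and between 3 and 17 were higher over the omissions. By rising dose, 9, 20, 22, 7 and 4 of the 29 were higher than vehicle. The median of CAR and PXR targets lay between -0.09 and -0.03, that of fasting genes between -0.08 and -0.04, and those of bile acid genes and PPAR-alpha targets each between -0.06 and -0.03. The cholangiocyte median lay between -0.05 and 0.01, the male-predominant median between 0.01 and 0.03, and the neutrophil median between 0.02 and 0.05.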

How the data were processed

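The authors deposited log2 expression values per probe set, made with RMA in affy per the submitters' processing notes, with versions not given in the sources used here. That the scale is log2 follows from RMA's convention. RMA's quantile step would reduce a shift of most transcripts in 1 direction. Of 31099 probe sets, 57 array controls were left out and 31042 tested without a filter. Genes were named from the platform annotation: 20826 probe sets had 1 symbol, 436 several and 9780 none, and 20758 matched RefSeq genes of GRCr8, an assembly consulted for names and neighbouring genes alone. Each of 14217 genes was represented by its probe set with the highest mean.

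limma 3.58.1 in R 4.3.3 fitted 2 group means to the 35 arrays, with Benjamini-Hochberg adjustment over all probe sets and a threshold of 0.05. A fit with 1 mean per group gave the F test among doses. The study's design names R/maanova, which was not used. The fits were tested on simulated data. Named genes were the 10 in each direction with the smallest p and the 5 with the largest difference, at or above the lowest array median, 4.71, then the member of each list with the smallest p, the first 2 measured members of each response list and the probe sets of any level with the smallest p. Of 753 list entries, 654 were measured and 99 were not analysed here. Members, lists and rule were chosen with earlier results of these data known. The number of arrays limits the precision. The comparison was repeated with dim probe sets removed, with quantile normalisation or median centring of the deposited values, and with replicate number as a block. It was also repeated with other variance models, with the log2 actin difference as a covariate, and without each dose group or array.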

Additional observations from a re-analysis of the deposited data

Results flagged for a closer look

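Among 247 groups of 5 or 6 rats, 25 held 1 rat whose gap to the nearest other exceeded Dixon's 95% critical value. Chance flags about 1 in 20 groups. Of these, 8 concerned Nrdc, Txndc12, Ugt2b and Cdh17, whose levels fall into high and low classes. Nrdc was low at 6.17 in replicate 5 of 0.07 mg/kg and at 6.27 in replicate 4 of 68 mg/kg, and Txndc12 at 6.92 in replicate 5 of 0.07 mg/kg and at 7.21 in replicate 5 of 0.69 mg/kg. Ugt2b was low at 4.57 in replicate 5 of 0.69 mg/kg, at 4.97 in replicate 2 of 6.88 mg/kg and at 4.34 in vehicle replicate 3. Cdh17 was high at 9.80 in replicate 2 of 6.88 mg/kg.

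In dosed rats, single low values were those of Stau2 (5.14, 0.07 mg/kg), Tmem216 (6.46, 0.69 mg/kg), Rgs12 (4.67, 68 mg/kg), Socs2 (6.22, 680 mg/kg) and Igfbp1 (6.81, 680 mg/kg). Single high values were those of S1pr1 (11.11, 0.07 mg/kg), Zfp354a (7.58, 0.69 mg/kg) and Mtss1 (9.78, 6.88 mg/kg).

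In vehicle rats, low values were found for Slc44a4 (4.29, replicate 1), Cyp8b1 (10.08, replicate 4), Sqle (8.21, replicate 4), Alb (14.23, replicate 5) and Mx1 (3.99, replicate 3). High values were found for Fam120b (6.94, replicate 3), Csf3r (3.06, replicate 1), Fos (4.38, replicate 2) and Asb5 (5.18, replicate 6). None of the genes examined had every rat of 1 dose on 1 side of the vehicle mean and every rat of another dose on the other side.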

How the results depend on the processing

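The pooled comparison gave 0 calls under 16 alternative settings and under 35 omissions of 1 array, with a lowest adjusted limma p of 0.268 without the 0.07 mg/kg group, for Cdh17, and of 0.297 without vehicle replicate 6. The test among doses gave 0 under 9 settings and 35 omissions. With the replicate number as a block, 0 were called higher and 0 lower, with 535 and 581 at an unadjusted p under 0.05. On average the numbers did not pair the rats. Deviations of same-numbered rats of different groups correlated by -0.01 on average over 85 pairs, with a range of -0.30 to 0.27. A link between only some of the numbers was not tested. Among the genes with the smallest p or largest difference, the set repeated under every setting, 1 value reversed. It was that of Ugt2b, whose difference ran from -0.51 to 1.17 when 1 rat was left out. The genes of this set were picked from the same rats, so a kept sign adds no independent support. List counts without each vehicle rat, chosen after seeing the data, moved by over 1.5 times in 9 of 192 cases. List medians of 0.01 or more in size that the text gives kept their sign under both rescalings, and the macrophage list had 17 of 19 members lower after median centring and 16 after a second quantile normalisation. The actin measure differed by 0.03 to 0.06 over the vehicle omissions. Signal near background limits dim probe sets, whose differences RMA compresses.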
